A study of Homo sapiens with 6 samples.

Results

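The transcripts of 10 circadian clock genes were followed in RKO cells labelled GSK3B wild-type or GSK3B knockout. The genes were taken by symbol from tables of 28278 gene symbols: PER1, PER2, PER3, CRY1, CRY2, NR1D1, NR1D2, CLOCK, DBP and TEF, and all 10 were found. RKO is an established line from a human colon carcinoma. The series held 6 polyA RNA libraries, 3 of GSK3B wild-type RKO cells and 3 of GSK3B knockout RKO cells, and asked how the transcriptome changes with the level of GSK3B. The sources used here give neither the method of the knockout nor whether the line was 1 clone, nor at what time of day or after what synchronisation the cells were taken. The labels number the replicates without saying that they were separate cultures, so the p-values measure the spread between these libraries, which may be technical.

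The circadian clock is a loop of transcription and translation that runs in most human cells. CLOCK and its partner BMAL1, the product of ARNTL, bind E-boxes and activate the PER and CRY genes, whose proteins return to the nucleus and inhibit CLOCK and BMAL1. A second loop runs through the nuclear receptors REV-ERB alpha and beta, the products of NR1D1 and NR1D2, which repress ARNTL at the same response elements at which ROR receptors activate it. DBP and TEF belong to the PAR-bZIP family and activate genes through D-boxes, where the product of NFIL3 represses. GSK3 kinases phosphorylate several of these proteins, among them CRY2, PER2, REV-ERB alpha, CLOCK and BMAL1, and alter their stability or location. The libraries measured transcripts and carry no information on the phosphorylation or amount of the proteins. A single collection of growing cells also gives the average over cells whose clocks may stand at different phases.

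Total counts were 32379369 to 33558362 per library, and the clock genes had 157 to 2203 counts each in a library. Levels are given as CPM (counts scaled to a common library size), scaled between libraries by the TMM method. GSK3B itself stood at 99.0, 97.6 and 91.4 CPM in the wild-type libraries (always in the order of replicates 1 to 3) against 46.0, 47.5 and 47.1 CPM in the knockout libraries, 48.8% of the wild-type level (95% interval 45.4 to 52.4). The knockout libraries therefore still held GSK3B transcripts, and a count over the whole gene cannot tell which exons were left. Of 8 epithelial markers 5 reached 1 CPM, with KRT18 at 72.4 and CDX2 at 18.6 CPM on average over the 6 libraries, while CDH1 and LGALS4 were listed at 0. EPCAM, another epithelial marker, fell, from 3.62, 4.28 and 2.40 CPM in wild type to 1.04, 1.06 and 1.11 CPM in knockout. Of 6 blood cell markers 3 were at 0, PTPRC and CD3E among them, and 1, CD68, reached 1 CPM, at 740 to 763 CPM in every library. LYZ and HBB averaged 0.076 and 0.005 CPM over the 6 libraries. The source of the CD68 transcripts was not tested. The 6 fibroblast markers summed to 2.19 to 5.89 CPM in wild-type and 0.870 to 1.14 CPM in knockout libraries, and 1 of them, PDGFRB, reached 1 CPM. The part of EPCAM and of the fibroblast markers in the results was not tested.

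Among the 10 clock genes, PER3 rose and PER1 fell, and the other 8 did not pass the test. PER3 stood at 137% of its wild-type level (95% interval 115 to 163) and PER1 at 85.0% (95% interval 76.0 to 95.1). In edgeR's quasi-likelihood test at an adjusted p under 0.05, 2 of the 10 were called. Of all 14409 genes tested, 13.5% were called, 6.36% higher and 7.18% lower in the knockout. The groups did not overlap in 5 of the 10 clock genes, PER1, PER2, PER3, NR1D1 and CLOCK, against 31.3% of all tested genes. The median log2 fold change of the 10 was 0.0008 and that of all tested genes 0.0007, and the median size of the change was 0.16 against 0.10. The choice of scaling and a correction for GC content moved the balance of calls over all genes, from 917 higher and 1034 lower to 649 and 1229 with scaling by library size alone and to 1980 and 1063 after the GC correction. The clock genes had 1 higher and 1 lower with either scaling, and 2 higher and 0 lower after the GC correction, where 13.7% of all tested genes were higher and 7.38% lower. The median log2 fold change of all tested genes was 0.02 after the GC correction.

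**Figure D1:**
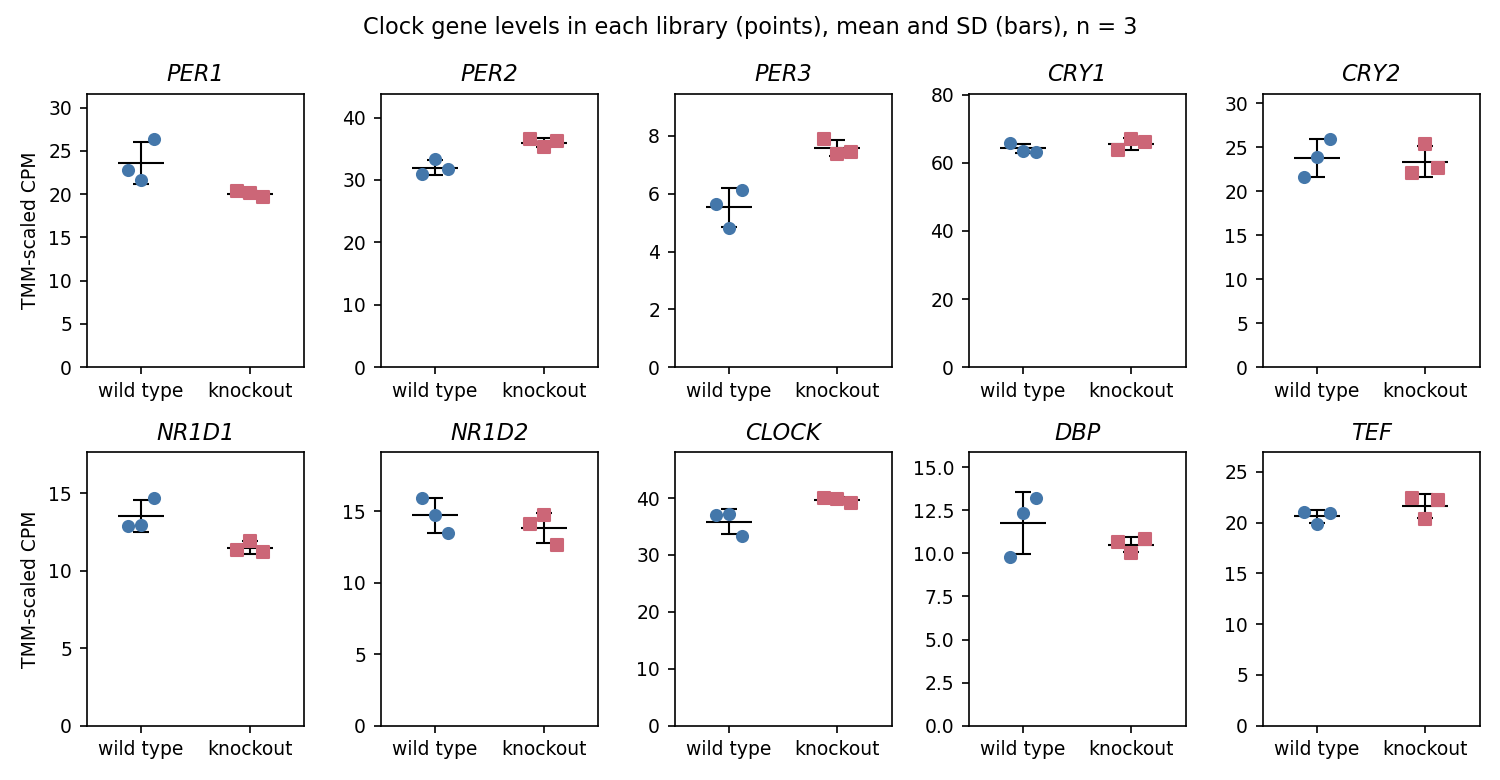
Level of each clock gene in TMM-scaled CPM (vertical axes, from 0) in the 3 wild-type libraries (circles) and the 3 knockout libraries (squares), with the mean and SD of each group. The knockout points lie above all wild-type points for PER2, PER3 and CLOCK and under them for PER1 and NR1D1.

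The PER genes encode the period proteins, which carry the CRY proteins into the repressive complex. PER3 had 5.65, 4.80 and 6.13 CPM in wild type against 7.89, 7.37 and 7.45 CPM in knockout. Every knockout library was above every wild-type library, although PER3 had the fewest counts of the 10 genes. It rose by 0.45 ± 0.12 on the log2 scale (SE, n = 3 per group; edgeR, adjusted p = 0.0139). The call was lost without wild-type replicate 2 (log2 fold change 0.36, adjusted p = 0.0980) and without knockout replicate 1 (0.42, adjusted p = 0.0661), and the adjusted p ran from 0.00424 to 0.0980 over 17 alternative fits. PER3 is annotated at chr1:7784320-7845177 (hg38, plus strand), and shares 868 exon bases with UTS2, the urotensin 2 gene on the other strand. The sources used here do not give the strand setting of the counting, so reads of such a pair cannot be told apart. UTS2 was at 1.30 ± 0.25 CPM in wild type against 1.21 ± 0.045 CPM in knockout (SD, n = 3), with a log2 fold change of -0.11 that did not pass (edgeR, adjusted p = 0.837).

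PER1, which is induced rapidly by cAMP and glucocorticoid signals as well as by the clock, had 22.8, 21.6 and 26.4 CPM in the wild-type libraries and 20.3, 20.2 and 19.7 CPM in the knockout libraries. The groups did not overlap, but the wild-type value of replicate 3 stood well above the other two. That library also had the highest sum of fibroblast markers (5.89 CPM), whose part in the result was not tested. The log2 fold change was -0.23 ± 0.08 (SE), with an adjusted p of 0.0473 in edgeR's test, close to the threshold. Without wild-type replicate 3 it was -0.15 (adjusted p = 0.195), and the call was also lost without knockout replicate 1, 2 or 3 (adjusted p = 0.108, 0.125 and 0.144). DESeq2 and limma-voom did not call it (adjusted p = 0.0758 and 0.0569), and after the GC correction the change was -0.12 (adjusted p = 0.209). Over the 17 alternatives the sign was the same in 17, the call was kept in 9, and the adjusted p ran from 0.0253 to 0.232. PER1 is annotated at chr17:8140472-8156506 (hg38, minus strand) and holds the microRNA gene MIR6883, which had 0.12 to 0.27 CPM per library.

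PER2, the period gene whose protein carries the casein kinase sites best known from human sleep phase, had 30.9, 33.3 and 31.7 CPM in wild type and 36.5, 35.2 and 36.2 CPM in knockout. All knockout values were higher, by a log2 fold change of 0.17 ± 0.06 (SE), but the adjusted p was 0.0641 in edgeR's test. After the GC correction PER2 passed, at 0.21 (adjusted p = 0.00505), and its adjusted p ran from 0.00505 to 0.194 over the alternatives. In the GC-corrected fit the median log2 fold change of all tested genes was 0.02, against 0.0007 without the correction. PER2 is annotated at chr2:238244038-238290102 (hg38, minus strand).

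Promoter windows of RefSeq (GRCh38.p14, from 250 bases before to 50 bases after each annotated start) were searched on both strands for the elements that clock factors bind, and 15 windows matched the 10 genes. A stretch of each PER gene is printed. Whether the factors that bind these elements act on the PER genes was not tested. Capitals mark the match, and each stretch reads 5′ to 3′ on the strand of its gene.
PER1, E-box CACGTG, chr17:8152550-8152599, minus strand: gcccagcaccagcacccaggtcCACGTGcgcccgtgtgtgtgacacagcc
PER2, E-prime-box CACGTT, chr2:238288780-238288829, minus strand: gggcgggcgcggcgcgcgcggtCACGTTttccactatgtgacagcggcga
PER3, D-box TTATGTAA, chr1:7784092-7784143, plus strand: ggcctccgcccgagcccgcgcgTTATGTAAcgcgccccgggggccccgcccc
The matches began 173, 197 and 177 bases before the RefSeq start of the window in PER1, PER2 and PER3. PER2 also had a D-box, TTACGTAA, beginning 3 bases before the same RefSeq start. The windows of PER1 and PER2 lie inside the annotated gene spans given above, whose outer ends are other starts. The E-box CACGTG was in 7.26% of all 35116 promoter windows and in 4 of the 15 windows of the clock genes (PER1, both windows of TEF and 1 of NR1D2). The E-prime-box CACGTT was in 5.34% of all windows and in 5 of the 15, and the D-box, searched as TTATGTAA or TTACGTAA, in 1.01% and 3 of the 15. These motifs do not overlap one another in the windows printed. A match is a run of letters and does not show that a factor was bound.

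The cryptochrome genes CRY1 and CRY2 encode the main repressors of CLOCK and BMAL1, and neither transcript passed the test. CRY1 had 65.8, 63.6 and 63.2 CPM in wild type and 63.6, 66.9 and 66.2 CPM in knockout, at 102% of wild type (95% interval 95.2 to 110). CRY2, whose protein GSK3 marks for degradation, had 21.7, 23.9 and 25.9 CPM in wild type and 22.1, 25.4 and 22.6 CPM in knockout, at 98.0% (95% interval 87.6 to 110). The groups overlapped in both genes, and the intervals leave room for changes of up to about those bounds. The log2 fold changes of 0.03 and -0.03 turned to -0.04 and 0.05 after the GC correction, while both signs were the same with RLE scaling and with scaling by library size alone. CRY1 is annotated at chr12:106991364-107093829 (hg38, minus strand), and CRY2 at chr11:45847118-45883248 (plus strand). Both had an E-prime-box read on the opposite strand (as AACGTG), 89 and 188 bases before a start, and CRY2 had the only match to the core of the ROR response element, TAGGTCA, which 1.85% of all windows held.

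NR1D1 and NR1D2 encode REV-ERB alpha and beta, heme-binding receptors that repress through the corepressor NCOR1 and the deacetylase HDAC3. NR1D1 had 12.9, 12.96 and 14.7 CPM in wild type and 11.3, 11.9 and 11.2 CPM in knockout. Its groups did not overlap, and it stood at 84.9% of wild type (95% interval 74.5 to 96.7), almost the same estimate as PER1, but it did not pass (log2 fold change -0.24 ± 0.09 SE; edgeR, adjusted p = 0.0874, range over alternatives 0.0579 to 0.276). After the GC correction the difference was -0.14. Wild-type replicate 3 had the highest value, and without it the log2 fold change of NR1D1 was -0.17 (edgeR, adjusted p = 0.255). NR1D2 had 15.9, 14.7 and 13.5 CPM in wild type and 14.1, 14.7 and 12.7 CPM in knockout, with overlapping groups and a log2 fold change of -0.09 ± 0.09 (SE; adjusted p = 0.562). NR1D1 is annotated at chr17:40092787-40100725 (hg38, minus strand). It shares 263 exon bases with THRA, the thyroid hormone receptor alpha gene on the other strand.
NR1D1, E-prime-box CACGTT on the opposite strand, chr17:40100730-40100779, minus strand: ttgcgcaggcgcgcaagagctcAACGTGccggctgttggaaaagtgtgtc
NR1D2, E-box CACGTG, chr3:23945944-23945993, plus strand: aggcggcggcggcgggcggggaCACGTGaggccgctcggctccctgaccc
NR1D2, D-box TTATGTAA on the opposite strand, chr3:23945905-23945956, plus strand: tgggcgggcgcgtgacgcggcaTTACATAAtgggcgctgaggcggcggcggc
NR1D2, like PER2, carried a D-box together with an E-box or E-prime-box in 1 window. Another E-box of NR1D2, not printed, began 105 bases before the start of the same window's transcript. The bearing of these motifs on the transcript levels was not tested. THRA had 59.5 ± 3.51 CPM in wild type against 54.9 ± 2.30 CPM in knockout (SD, n = 3) and did not pass either (log2 fold change -0.12; edgeR, adjusted p = 0.178).

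CLOCK, the histone acetyltransferase and DNA-binding partner of BMAL1, had 37.0, 37.2 and 33.4 CPM in wild type and 40.1, 39.9 and 39.1 CPM in knockout. Every knockout library was higher, with the lowest value in wild-type replicate 3. The log2 fold change of 0.15 ± 0.06 (SE) did not pass (edgeR, adjusted p = 0.114) and was 0.07 after the GC correction. CLOCK is annotated at chr4:55427903-55547138 (hg38, minus strand) and shares 76 exon bases with TMEM165 on the other strand, which had 60.6 ± 1.63 CPM in wild type against 65.6 ± 3.67 CPM in knockout (SD, n = 3; log2 fold change 0.12, adjusted p = 0.156). ARNTL, the gene of its partner, had 16.1, 16.8 and 17.9 CPM in wild type and 16.1, 16.2 and 14.7 CPM in knockout. These groups overlapped, and ARNTL stood at 92.6% of wild type (95% interval 82.4 to 104; adjusted p = 0.403).

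Of the PAR-bZIP genes, which are direct outputs of the clock, neither passed. DBP had 9.78, 12.3 and 13.2 CPM in wild type and 10.7, 10.01 and 10.9 CPM in knockout. Wild-type replicate 1 lay under all 3 knockout values and replicates 2 and 3 above them. The log2 fold change of DBP was -0.17 ± 0.11 (SE; edgeR, adjusted p = 0.330), and -0.08 after the GC correction. TEF had 21.1, 19.9 and 20.9 CPM in wild type and 22.5, 20.3 and 22.2 CPM in knockout, a log2 fold change of 0.07 ± 0.07 (SE; adjusted p = 0.574) with overlapping groups. DBP is annotated at chr19:48630030-48637438 (hg38, minus strand) and shares 661 exon bases with the sphingosine kinase gene SPHK2, which had 17.9 ± 0.90 CPM in wild type against 17.5 ± 1.31 CPM in knockout (SD, n = 3; log2 fold change -0.03, adjusted p = 0.872). TEF is annotated at chr22:41367333-41399326 (hg38, plus strand). HLF, the third gene of the family, had at most 0.18 CPM in a library and was not tested.

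**Figure D2:**
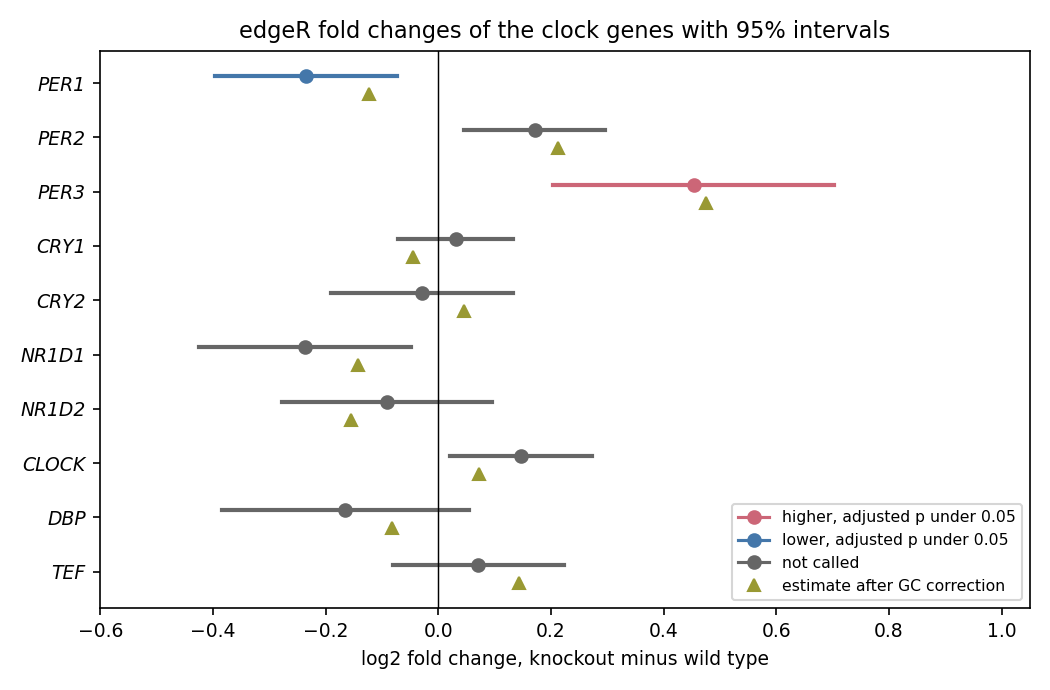
Log2 fold change of each clock gene, knockout minus wild type (horizontal axis), as edgeR's estimate with its 95% interval (circle and line) and as the estimate after the GC correction (triangle). PER3 is called higher and PER1 lower, the intervals of PER2, NR1D1 and CLOCK also lie to 1 side of 0 without passing the adjusted threshold, and the triangle of PER1 stands nearer to 0 than its circle.

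Levels of different genes were compared per kilobase of the longest coding transcript in GENCODE 29. In wild type CRY1 was the most abundant, at 19.7 ± 0.43 CPM per kilobase (SD, n = 3). CRY2 (5.67 ± 0.51), DBP (5.29 ± 0.80), PER1 (5.01 ± 0.52), PER2 (5.01 ± 0.19), NR1D1 (4.87 ± 0.38) and TEF (4.70 ± 0.15 CPM per kilobase) followed, and the ranges of neighbours in this order overlapped. CLOCK (3.48 ± 0.21), NR1D2 (2.80 ± 0.23) and PER3 (0.874 ± 0.11 CPM per kilobase) came last, each under the whole range of the gene before it. The order depended on the length used: per kilobase of all annotated exons DBP was at place 9 instead of 3, after CLOCK and NR1D2 at places 7 and 8, while CRY1 and PER3 were at places 1 and 10 with either length.

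Ratios of paralogs within a library do not depend on the scaling between libraries. PER1 had 0.739, 0.649 and 0.831 counts per count of PER2 in wild type against 0.557, 0.573 and 0.544 in knockout. PER1 and PER2 thus stood further apart in every knockout library than in any wild-type library, by -0.40 on the log2 scale. Every knockout library was already under all wild-type libraries for PER1 and above them for PER2. The separation of this ratio and its permutation p-value were fixed by that order, so they add no separate test. By exact permutation of the libraries (two-sided) p was 0.1, the lowest that 3 against 3 allows, and 0.4 after adjustment over the 4 ratios. CRY1 to CRY2 differed by 0.06 (exact permutation p = 0.7), NR1D1 to NR1D2 by -0.14 (p = 0.5) and DBP to TEF by -0.22 (p = 0.4), each with overlapping groups and adjusted values of 0.667 to 0.7. PER1 and PER2 transcripts also differ in GC content, at 62.7% and 52.4%.

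Fold changes over all tested genes moved with the GC content of the longest transcript, and the clock genes span most of that range. The median log2 fold change was 0.08 in the 2120 genes under 40% GC and -0.08 in the 2108 genes at 60% or more. After the GC correction these medians were 0.01 and 0.03, and the median over all tested genes was 0.02. CLOCK, CRY1 and NR1D2 had 37.2%, 37.2% and 38.5% GC, PER3 46.2% and PER2 52.4%. TEF, CRY2, DBP, NR1D1 and PER1 had 56.7%, 57.0%, 57.8%, 59.5% and 62.7%. The rise of PER3 was as large after the GC correction (0.47; edgeR, adjusted p = 0.00455), while the differences of PER1, NR1D1, DBP and CLOCK were each smaller than before it (-0.12, -0.14, -0.08 and 0.07). Those of NR1D2 (-0.15), TEF (0.14) and PER2 (0.21) were each larger, and of these PER2 passed the test. Whether the trend arose in the cells or in library preparation was not tested.

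**Figure D3:**
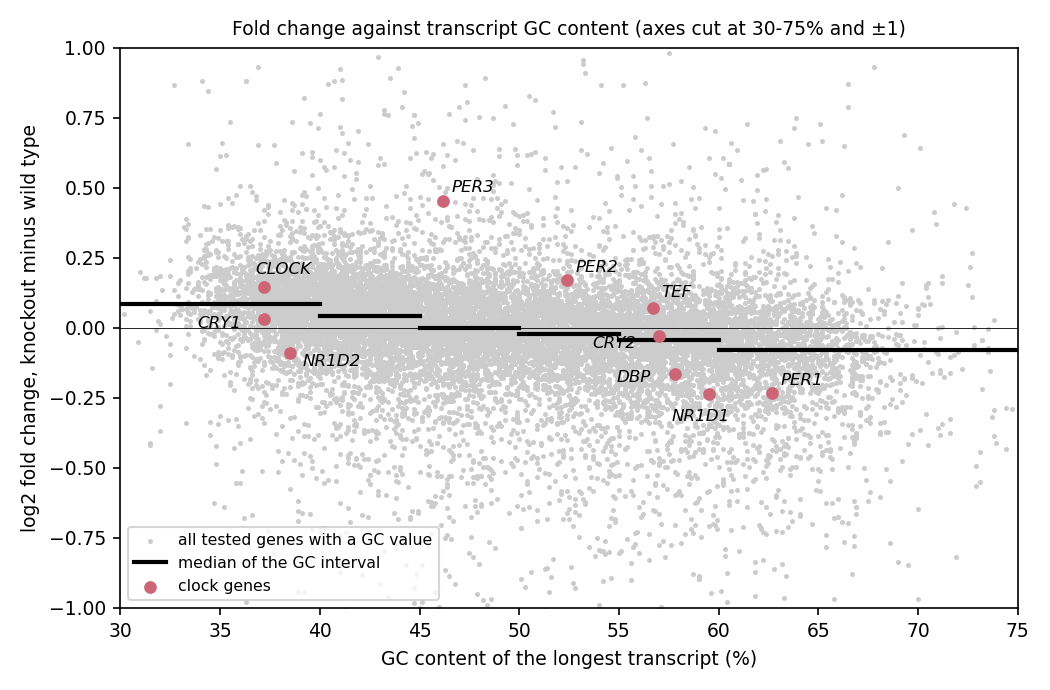
Log2 fold change, knockout minus wild type (vertical axis), against the GC content of the longest transcript in percent (horizontal axis) for all tested genes (grey), the median of each GC interval (black lines) and the clock genes (labelled); genes outside the axes are left out. The interval medians descend from 0.08 to -0.08, and PER3 stands far above the median of its interval.

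The rest of the pathway was read from lists of 60 other clock-related genes, ordered by role. Of these, 52 were tested, 2 rose, 9 fell and 41 did not pass, with a median log2 fold change of -0.04, and GSK3B itself is 1 of the 9. Of all tested genes 6.36% rose and 7.18% fell. After the GC correction 9 of the 52 rose and 11 fell, beside 13.7% and 7.38% of all tested genes in that fit. Genes of factors that bind the same elements as the clock proteins were among those that fell. BHLHE40, which encodes the E-box repressor DEC1, had 135, 144 and 142 CPM in wild type against 105, 104 and 101 CPM in knockout, at 73.7% of wild type (edgeR, adjusted p = 1.62e-07). NFIL3, whose protein represses at D-boxes, had 50.1, 49.1 and 50.6 CPM in wild type and 37.4, 36.7 and 36.6 CPM in knockout, at 73.9% (adjusted p = 6.95e-06). In both genes the gap between the groups was several times the spread within them.

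CIART, an inhibitor of CLOCK and BMAL1, had 6.71, 6.63 and 6.43 CPM in wild type and 4.598, 5.07 and 4.72 CPM in knockout (log2 fold change -0.46 ± 0.12 SE; edgeR, adjusted p = 0.0135). It missed the threshold without wild-type replicate 2 or knockout replicate 1 (adjusted p = 0.0522 and 0.0645). BHLHE41 (DEC2) and TIMELESS did not pass, so 3 of the 5 tested genes of this list fell and 0 rose, where 7.18% of all tested genes fell and 6.36% rose. Of the activators, RORA, which drives ARNTL through ROR elements, had 12.5, 12.6 and 10.6 CPM in wild type and 8.25, 8.86 and 7.12 CPM in knockout, at 68.1% (adjusted p = 0.00112). ARNTL2, a paralog of ARNTL, was at 122 ± 4.89 and 133 ± 7.53 CPM (SD, n = 3), with no overlap between the groups and an adjusted p of 0.0760. It passed without wild-type replicate 1 (adjusted p = 0.0282). NPAS2 and ARNTL also did not pass, and RORB was listed at 0.

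Among 10 tested clock kinase genes, GSK3B itself and CSNK1E fell and 8 did not pass, where 7.18% of all tested genes fell. CSNK1E, a casein kinase 1 gene whose product phosphorylates the PER proteins, had 146, 148 and 159 CPM in wild type against 131, 129 and 134 CPM in knockout, at 86.9% (log2 fold change -0.20; edgeR, adjusted p = 0.00299). After the GC correction the change of CSNK1E, with 58.1% GC, was -0.12 (adjusted p = 0.00619). Its close relative CSNK1D was at 134 ± 7.21 and 130 ± 1.99 CPM (SD, n = 3; adjusted p = 0.603).

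Of the tested genes of ubiquitin ligases and deubiquitinases, USP2 fell. This deubiquitinase gene, which is itself under clock control, was low, at 2.67, 1.90 and 3.51 CPM in wild type and 1.49, 1.74 and 1.62 CPM in knockout (log2 fold change -0.73 ± 0.23 SE; edgeR, adjusted p = 0.0353). The call was lost in DESeq2 and limma-voom (adjusted p = 0.0655 and 0.0618) and without wild-type replicate 3 or any 1 of the knockout replicates (adjusted p = 0.199, 0.114, 0.0712 and 0.0797). Of 11 cofactor genes SFPQ, which encodes an RNA-binding partner of the PER complex, rose to 113% of wild type, from 348 ± 4.69 to 394 ± 3.68 CPM (SD, n = 3; adjusted p = 7.15e-04). Over all tested genes 6.36% rose. NONO, which encodes the partner of SFPQ, was at 446 ± 9.999 and 452 ± 10.6 CPM and did not pass (adjusted p = 0.781). NCOR1 and HDAC3, the REV-ERB corepressor genes, did not pass either.

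Of 13 tested clock-controlled output genes KLF9 and PPARA fell and 11 did not pass, where 13.5% of all tested genes were called and 7.18% fell. KLF9, a zinc-finger factor gene that also responds to glucocorticoids, had 9.84, 9.57 and 9.46 CPM in wild type and 5.27, 6.40 and 4.21 CPM in knockout, the largest fall in these lists after GSK3B, at 54.96% of wild type (edgeR, adjusted p = 5.81e-05). PPARA, a nuclear receptor gene of fatty acid oxidation, had 51.4, 49.6 and 48.3 CPM in wild type and 43.7, 44.1 and 43.2 CPM in knockout, at 87.7% (adjusted p = 0.0226). PPARA was not called without wild-type replicate 2 or any 1 of the knockout replicates (adjusted p = 0.0790, 0.0859, 0.0712 and 0.0910). The cell cycle kinase gene WEE1, a textbook E-box output, was at 76.8 ± 2.49 and 71.6 ± 2.75 CPM (SD, n = 3; adjusted p = 0.175), and it fell after the GC correction (log2 fold change -0.17; edgeR, adjusted p = 0.00160).

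**Figure D4:**
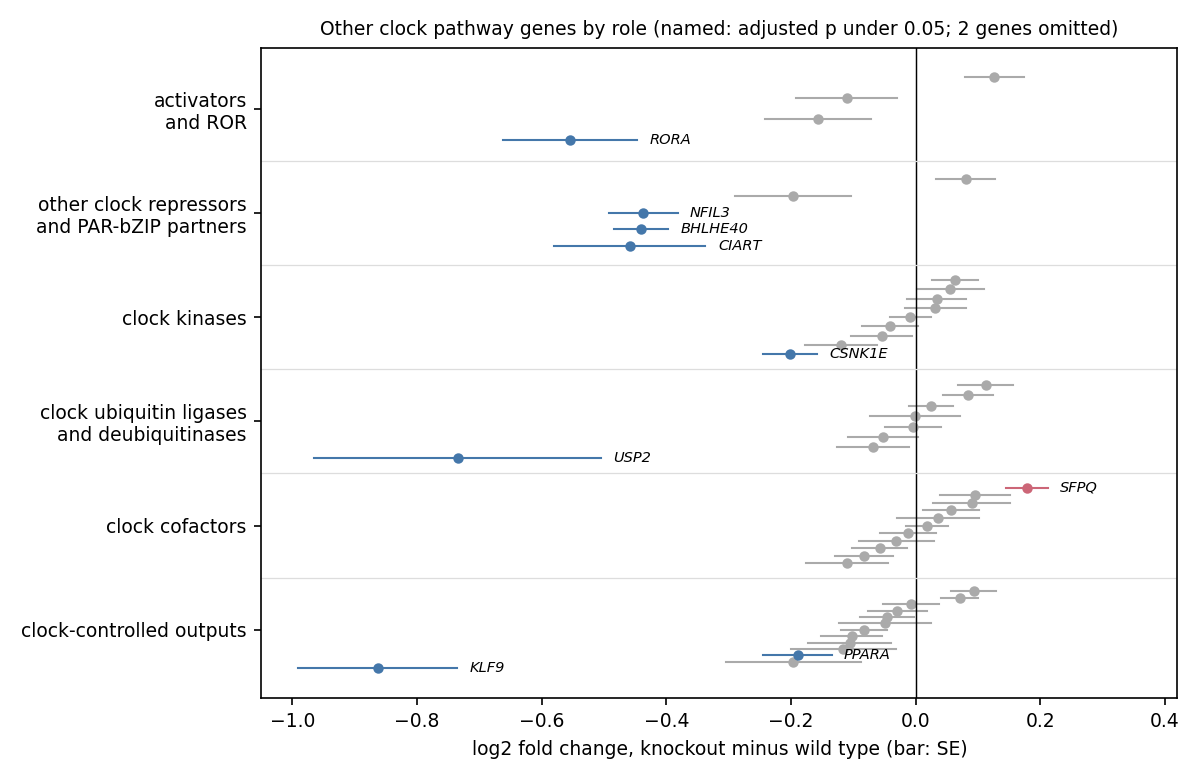
Log2 fold change, knockout minus wild type (horizontal axis, bars show the SE), of the tested genes of the other clock pathway lists, grouped by role (vertical axis), with called genes named and GSK3B and 1 other gene left out. The genes furthest to the left are KLF9 at -0.86, USP2 at -0.73 and RORA at -0.55, and SFPQ, which rose, is at 0.18.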

How the data were processed

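The deposited values were whole-number counts per gene symbol, 1 table per library, not normalized. The submitters' processing notes name hg38, TopHat, limma and edgeR. For the counting program, its annotation and its strand setting: not given in the sources used here. No entry was blank and 8380 symbols were at 0 in all libraries. Within groups replicates differed beyond counting noise (chi-square over its degrees of freedom 3.17 to 9.71). Each library was counted as 1 replicate, although this spread does not show whether the libraries were separate cultures.

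In R 4.3.3, edgeR 4.0.16 was run on genes passing filterByExpr (minimum count 10, minimum total 15; 14409 genes, all 10 clock genes among them) with TMM scaling, robust quasi-likelihood estimation, group as the only term and Benjamini-Hochberg adjustment over all genes, threshold 0.05. SEs came from the fold change and F statistic. Alternatives were other scalings and filters, a replicate block, DESeq2 1.42.0, limma-voom (limma 3.58.1), no robust option, a GC correction (spline with 5 degrees of freedom per library; 95.9% of tested genes had a GC value), leaving out ribosomal RNA genes and genes with identical counts, and leaving out each library. Coordinates and lengths are GENCODE 29 on hg38.

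The clock genes and lists were chosen with earlier results of these data known. Named genes were all 10 clock genes, GSK3B, ARNTL, up to 4 called genes with the largest change per list (filled to 2 by expression), and genes sharing exon positions with a clock gene. HLF, CSNK1D, BHLHE41, TIMELESS, NPAS2, RORB, NCOR1, HDAC3 and WEE1 were named after their values were seen. One listed symbol of the 60, FBXL21, was not matched. Some genes of the lists are counted but not reported here by name.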

Additional observations from a re-analysis of the deposited data

How the results depend on the processing

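At 32379369 to 33558362 counts per library, PER3 had 157 to 259 counts, the fewest of the clock genes, which limits the precision of its change. Genes called over the whole table numbered 1951 with the settings of the report, 3043 after the GC correction and 3064 with that correction and the replicate block, and ran from 950 without knockout replicate 2 up to 2531 when wild-type replicate 1 was left out, with 1072 without wild-type replicate 2, 1094 without knockout replicate 1 and 1205 without knockout replicate 3. The clock genes called were 2, against 1 in DESeq2 and 1 in limma-voom (PER3 in both) and 0 to 2 without 1 library, with 0 without knockout replicate 1. The other pathway genes called were 11, against 20 after the GC correction, 21 with that correction and the replicate block, and 7 to 14 without 1 library. The labels do not say whether the replicate numbers pair the libraries. Deviations of same-numbered libraries correlated at 0.071, -0.004 and 0.031, and those of differently numbered libraries at -0.088 to 0.06. These values do not decide the question. With the replicate block 2193 genes were called, the same number of clock genes (2) and of other pathway genes (11). GSK3B ran from -1.07 to -1.02 on the log2 scale without 1 library. The CRY1 to CRY2 difference ran from -0.0164 without wild-type replicate 3 to 0.1424 in the fits without 1 library. Signs turned in genes that were not called: CRY1 (-0.0443 after the GC correction and -0.0446 with the block), CRY2 (0.0465 and 0.0462 in those fits, 0.0371 without wild-type replicate 3, 0.0105 without knockout replicate 1, lowest -0.0976 without wild-type replicate 1), NONO (-0.0009 with scaling by library size alone, -0.0004 without wild-type replicate 1, highest 0.0361 without wild-type replicate 2), UTS2 (0.0273 without wild-type replicate 3, lowest -0.2435 without wild-type replicate 2) and SPHK2 (0.0852 and 0.0835 after the GC correction without and with the block, 0.0020 without wild-type replicate 3, 0.0214 without knockout replicate 2, lowest -0.0826 without knockout replicate 1). THRA passed without wild-type replicate 1 and TMEM165 after the GC correction, with and without the block. The causes were not tested.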
